A study of Homo sapiens with 6 samples.

Results

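The semaphorins, plexins and neuropilins form a signalling family of axon guidance, with semaphorins as ligands and plexins and neuropilins as their receptors. Its members were taken by name from the deposited counts: every protein-coding gene named SEMA3 to SEMA7 plus a letter, the plexins PLXNA1 to PLXNA4, PLXNB1 to PLXNB3, PLXNC1 and PLXND1, and the neuropilins NRP1 and NRP2. This gave 31 genes of the 57820 in the table, 20 ligands and 11 receptors, and each was found under its Ensembl ID.

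RNA was sequenced in bulk from motor neurons made from H9, a long-established human embryonic stem cell line, of wild-type genotype. Motor neuron progenitors had been taken to motor neurons in neural medium with retinoic acid (RA) and SAG, an agonist of Hedgehog signalling, in every library. The simulated microgravity group (SMG, 3 libraries) was kept on a 2D clinostat, which rotates a culture so that gravity has no fixed direction for the cells, and the normal gravity group (NG, 3 libraries) was not. No source used here states how long the cells spent on the clinostat. Nothing in the labels says that a group's libraries came from separate cultures, so p-values reflect the spread among these libraries alone, and that spread may be technical. All libraries come from 1 cell line.

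Semaphorins are secreted (class 3) or bound to the cell surface (classes 4 to 7), and all share the sema domain that binds plexins. Most class 3 semaphorins bind a neuropilin, which has no signalling domain of its own, and signal through a plexin held in the same complex, while membrane semaphorins bind plexins directly. Plexins carry a cytoplasmic domain that inactivates small GTPases of the R-Ras and Rap kind, and their activity collapses growth cones or steers them. In mouse and chick embryos, neuropilins on motor axons and class 3 semaphorins in the limb take part in the timing and sorting of motor axon growth.

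The sequences just upstream of the start site are shown for 4 members that recur below: NRP2, the receptor that was lower in SMG, PLXNA4, a receptor that was higher, and SEMA3D and SEMA3E, ligands on chromosome 7 that moved in opposite directions. They are from RefSeq on GRCh38.p14, cover 250 bases that end at the start site and run 5′ to 3′ on the gene's strand. Capitals mark ACGTG and GCGTG on either strand, the core letters of the motif that hypoxia-inducible factors bind; a match is a description of the letters and not a site. ACGTG also lies within CACGTG, the E-box letters.
NRP2 (chr2:205682251-205682500, plus strand): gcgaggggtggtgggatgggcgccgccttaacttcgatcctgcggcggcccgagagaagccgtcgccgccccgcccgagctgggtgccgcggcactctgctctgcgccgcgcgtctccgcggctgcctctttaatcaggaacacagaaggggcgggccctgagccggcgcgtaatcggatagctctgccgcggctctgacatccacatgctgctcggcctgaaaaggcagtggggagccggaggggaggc
PLXNA4 (chr7:132576471-132576720, minus strand): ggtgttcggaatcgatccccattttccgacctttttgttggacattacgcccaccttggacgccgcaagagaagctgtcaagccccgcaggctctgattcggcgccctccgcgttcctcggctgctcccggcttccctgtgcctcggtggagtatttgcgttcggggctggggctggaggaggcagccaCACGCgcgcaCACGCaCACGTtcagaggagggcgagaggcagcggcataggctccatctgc
SEMA3D (chr7:85187057-85187306, minus strand): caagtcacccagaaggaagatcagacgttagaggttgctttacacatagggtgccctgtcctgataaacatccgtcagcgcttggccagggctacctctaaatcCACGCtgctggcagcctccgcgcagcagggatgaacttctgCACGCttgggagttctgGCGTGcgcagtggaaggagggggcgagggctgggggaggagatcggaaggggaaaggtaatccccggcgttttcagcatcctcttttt
SEMA3E (chr7:83649140-83649389, minus strand): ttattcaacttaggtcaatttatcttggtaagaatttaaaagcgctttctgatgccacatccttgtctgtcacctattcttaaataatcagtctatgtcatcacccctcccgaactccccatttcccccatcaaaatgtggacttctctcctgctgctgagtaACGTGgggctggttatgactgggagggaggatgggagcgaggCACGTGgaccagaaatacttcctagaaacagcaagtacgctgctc
PLXNA4 and SEMA3D each held 3 separate stretches of these letters, SEMA3E held 2, of which 1 was CACGTG, and NRP2 held 0. RefSeq windows were found for 27 members, and for genes with several listed starts the first was used. ACGTG or GCGTG was in the window of 7 of the 27 (25.9%), against 43.2% of all 35116 upstream windows of that length in the table, and CACGTG in 3 of the 27 (11.1%), against 6.35%.

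The libraries held 20986483 to 22685870 counts in SMG and 16329907 to 21386253 in NG. The family took 0.362%, 0.359% and 0.365% of all counts in the SMG libraries and 0.323%, 0.324% and 0.313% in the NG libraries. Motor neuron markers were present in every library, with 7 of 7 tested, 5 higher and 0 lower, and a summed level of 689 to 717 CPM (counts relative to library size, TMM-scaled) in SMG, against 581 to 613 CPM in NG. Markers of dividing cells summed to 1144 to 1156 CPM in SMG and 1363 to 1417 CPM in NG, with 4 of 5 lower. Astrocyte markers summed to 61.7 to 67.6 CPM in SMG and 78.8 to 83.9 CPM in NG, carried by SLC1A3 and GJA1, both lower, which are not restricted to astrocytes, while GFAP, AQP4, S100B and ALDH1L1 had 0 to 9 counts in any library. Endothelial markers summed to 8.92 to 10.2 CPM in SMG and 9.69 to 13.5 CPM in NG, with 2 of the 5 tested lower and CDH5 at 1 or 2 counts. TIE1, at a mean of 8.51 CPM over the 6 libraries, carried this sum. Mesenchymal markers summed to 2.83 to 3.90 CPM in SMG and 4.19 to 4.48 CPM in NG, with 1 of the 3 tested lower. Microglial markers summed to 0.566 to 0.876 CPM in SMG and 0.366 to 0.677 CPM in NG, with AIF1 and TREM2 at 0 in all 6 libraries. Ventral progenitor markers summed to 2545 to 2717 CPM in SMG and 2503 to 2762 CPM in NG, with 2 of the 7 tested lower. Most of this sum was NES, at a mean of 2037.5 CPM over the 6 libraries. Over all genes tested by edgeR, 17.3% were called higher and 18.5% lower. In bulk RNA, fewer cells of a type and less RNA per cell cannot be told apart. The part of these marker shifts in the results below was not tested.

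Setting SMG against NG asks which family members differ in abundance when motor neurons are kept on the clinostat. With TMM scaling, most plexins and the neuropilin NRP1 were higher in SMG, as were most membrane-bound semaphorins, while the other neuropilin, NRP2, and the secreted ligands SEMA3C and SEMA3D were lower. Of the 31 members 30 passed the filter on low counts, and 18 of these were higher and 3 lower in SMG by edgeR's quasi-likelihood test at an adjusted p of 0.05 (70.0% called). Over all 17803 genes tested the share called was 35.8%, with 17.3% higher and 18.5% lower. Without overlap of the libraries, 18 members were higher and 5 lower in SMG, where 22.6% of all tested genes were so higher and 23.6% lower (46.3% in all). The changes were modest: the members ranged from -0.72 to 0.80 on the log2 scale (SMG minus NG), with a median of 0.14 beside 0.00 (-1.8e-04) over all tested genes.

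Of the 11 receptors 8 were called higher and 1 lower, and their median log2 fold change was 0.33. Of the 19 tested ligands 10 were called higher and 2 lower, and their median was 0.11. Within the ligands, the 6 tested class 3 genes had 1 higher and 2 lower and a median of -0.13, while the 13 genes of classes 4 to 7 had 9 higher and 0 lower and a median of 0.16. The shares over all tested genes were 17.3% higher and 18.5% lower, and the share of class 3 genes called higher (16.7%) was near that. No test was made between these classes.

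Each library's counts also followed a trend with GC content and transcript length, which bears on these results, since the members' longest transcripts had a median length of 6099 bases and 57.4% GC, against 3250 bases and 47.9% over all tested genes. With that trend removed, 11 members were higher and 7 lower, beside 14.9% and 16.2% of all tested genes, and the median was 0.04. Then 5 receptors were higher and 2 lower (median 0.13), and 6 ligands were higher and 5 lower (median 0.01). Among these ligands, class 3 then counted 1 higher and 3 lower (median change -0.17), and classes 4 to 7 counted 5 higher and 2 lower (median change 0.07). The median GC was 58.8% for classes 4 to 7. It was 39.4% over all 7 class 3 genes, the untested SEMA3G included, which ran from 34.9% (SEMA3D) to 64.8% (SEMA3B). Of the 18 members first called higher, 11 were still called higher and 7 were not called, the 3 called lower were still lower, and 4 others were now called lower. Whether the trend is technical was not tested, so both values are given below where they differ in call or by more than 1.5 times.

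**Figure D1:**
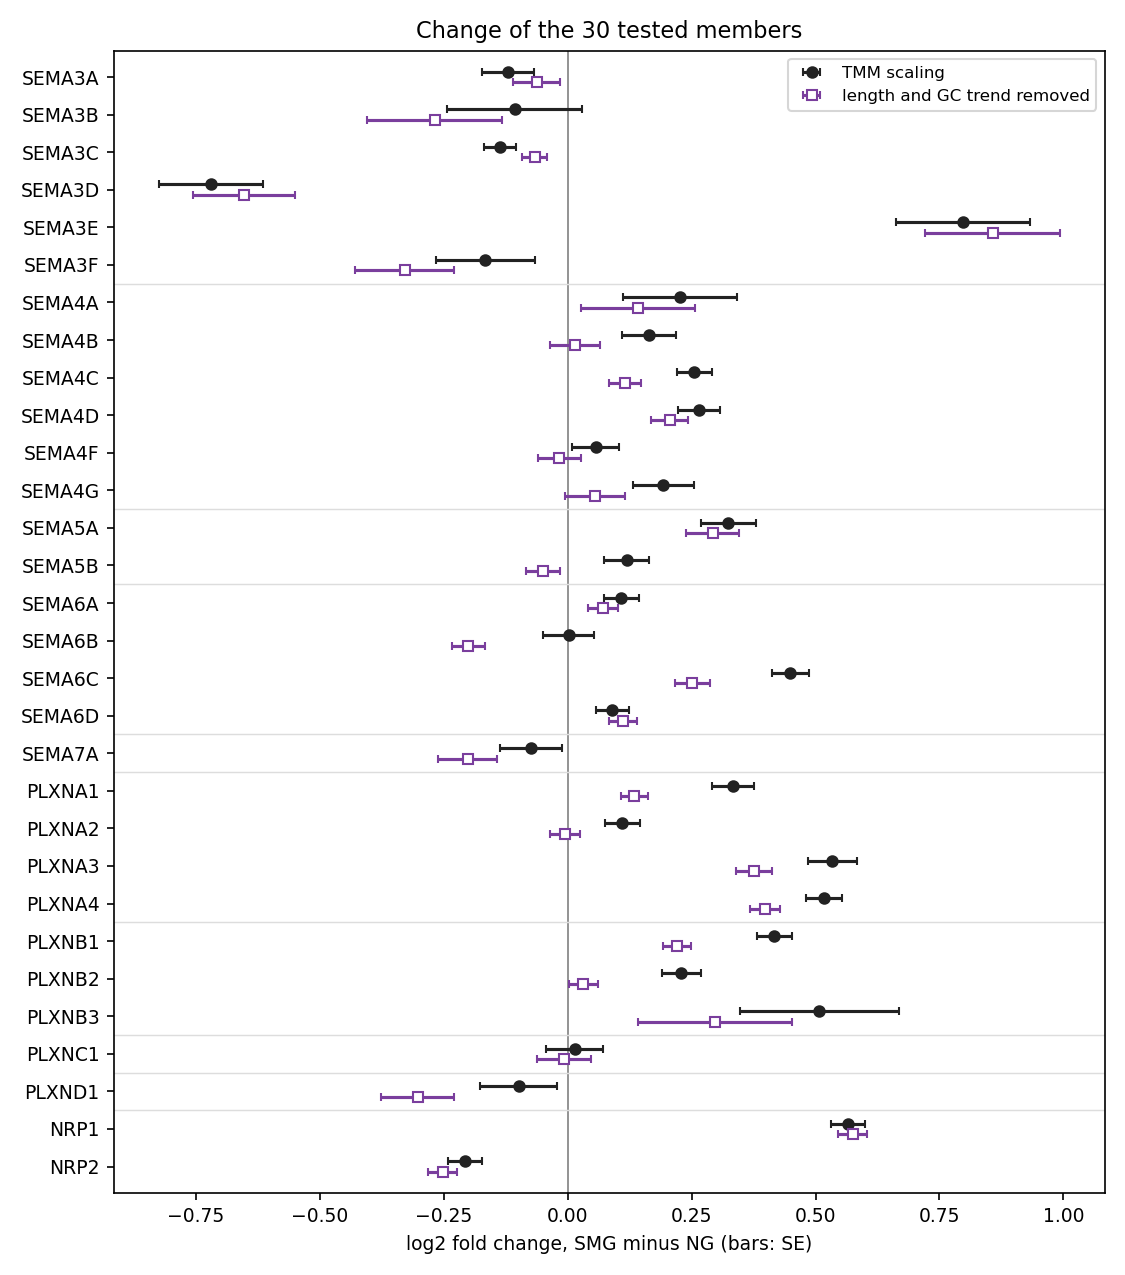
Log2 fold change of each of the 30 tested members (SMG minus NG, x axis) with its SE as a bar; filled circles are the TMM-scaled fit and open squares the fit without the GC and transcript length trend, and grey lines separate the classes. NRP1, PLXNA3, PLXNA4, SEMA6C and SEMA3E lie to the right of 0 and NRP2 and SEMA3D to the left in both fits. SEMA6B, SEMA5B, SEMA4F, PLXNA2 and PLXNC1 cross 0 between the fits.

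The neuropilins moved in opposite directions. NRP1, which pairs with plexin A receptors for SEMA3A and also binds VEGFA, was at 188, 186 and 189 CPM in SMG, against 129, 124 and 127 CPM in NG. All 3 SMG libraries were above all 3 NG libraries. NRP1 rose by 0.57 ± 0.03 on the log2 scale (SE; 1.48-fold, edgeR adjusted p = 2.45e-13). NRP2, the main neuropilin of SEMA3F, was at 159, 154 and 156 CPM in SMG, against 179, 183 and 180 CPM (179.6) in NG. The groups again did not overlap, here with SMG below, and NRP2 changed by -0.21 ± 0.03 (edgeR adjusted p = 2.03e-05). Both calls held under each of the 18 alternatives run, with 0.55 to 0.59 for NRP1 and -0.25 to -0.19 for NRP2. An annotated antisense gene overlaps 4.87% of the exon bases of NRP1 and another 1.06% of those of NRP2, with mean counts of 1 and 7.17 beside 3210 and 3351 for the neuropilins themselves.

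Set against each other per kilobase of exons, a ratio that does not depend on the scaling between libraries, NRP1 to NRP2 was 1.42, 1.45 and 1.46 in the SMG libraries and 0.866, 0.815 and 0.855 in the NG libraries. NRP1 was thus the more abundant neuropilin in each SMG library and NRP2 in each NG library. NRP1 made up 59.1% ± 0.299 of the neuropilin counts per kilobase in SMG and 45.8% ± 0.786 in NG (SD, n = 3 each). The difference in the log2 ratio was 0.77, and 0.75 to 0.79 with any 1 library left out. Which neuropilin is ahead can depend on the exon lengths used, 11522 bases for NRP1 and 13896 for NRP2. Without division by length the order was the same in every library. The SMG means were then 187 CPM for NRP1 and 157 CPM for NRP2, and the NG means 127 and 181 CPM. The difference between the groups in the log2 ratio does not depend on these lengths.

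**Figure D2:**
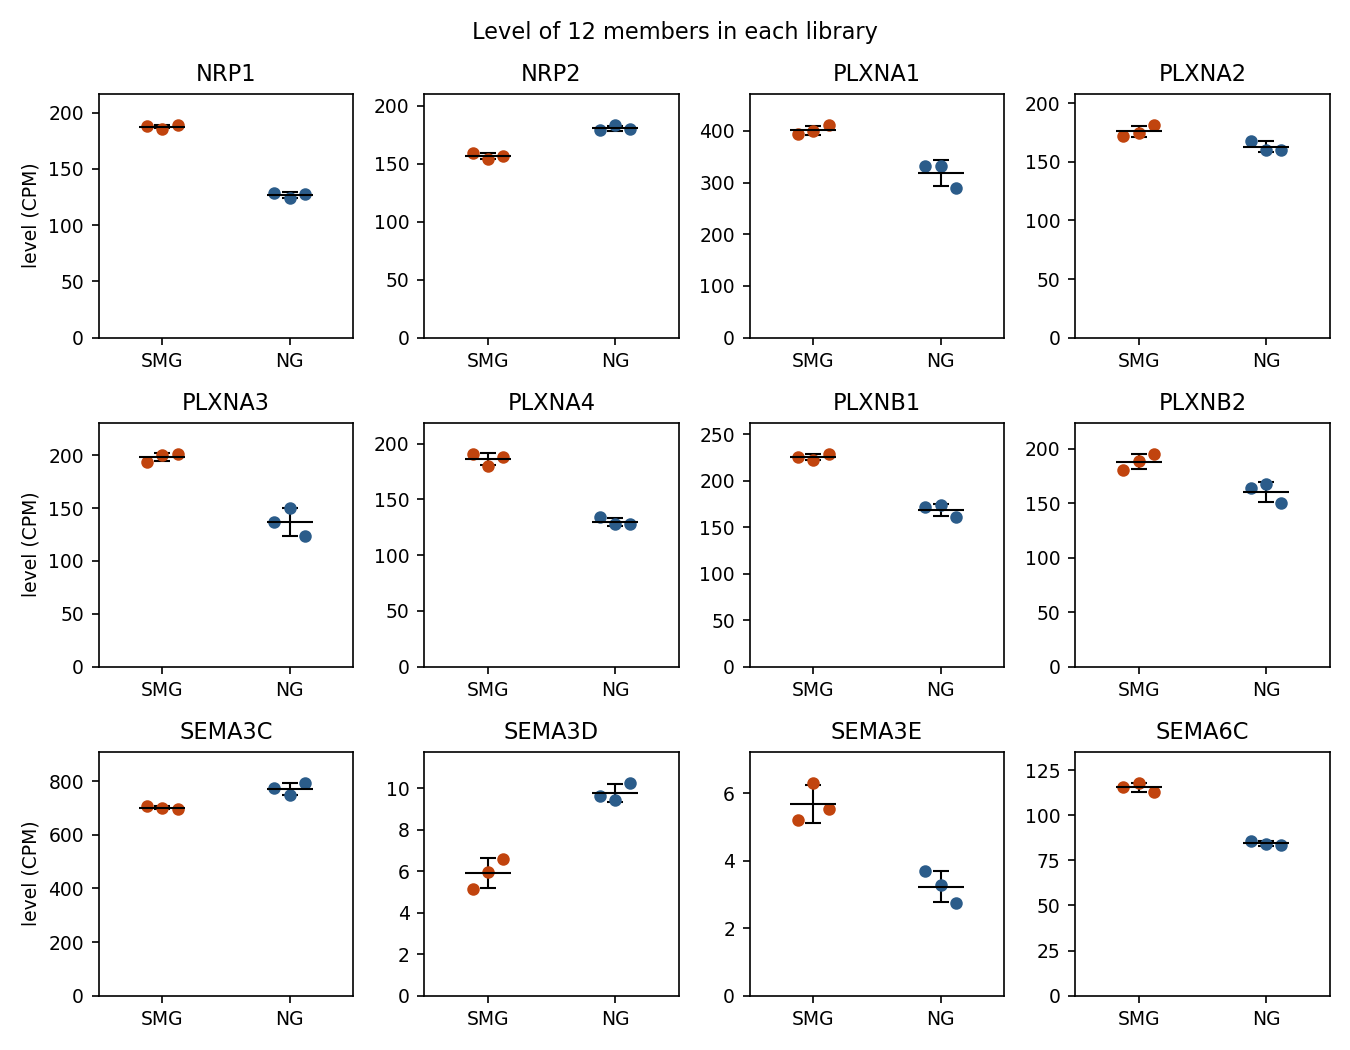
Level in CPM (y axis, from 0) of 12 members in each of the 3 SMG and 3 NG libraries; points are libraries, the horizontal line is the mean and the bar the SD. SMG points lie above NG points for NRP1, the 6 plexins shown, SEMA3E and SEMA6C and below them for NRP2, SEMA3C and SEMA3D.

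All 4 plexin A genes, the receptors that signal for neuropilin-bound class 3 semaphorins and directly for class 6, were called higher, beside 17.3% of all tested genes. With the trend removed 3 of the 4 were, beside 14.9%. PLXNA4, which acts with NRP1 for SEMA3A and also binds class 6 ligands, was at 190, 180 and 188 CPM (190.4, 179.9 and 187.7) in SMG, against 134, 128 and 128 CPM in NG. PLXNA4 rose by 0.52 ± 0.04 (edgeR adjusted p = 5.44e-12), or 0.40 with the trend removed. PLXNA3, which in mouse acts with NRP2 for SEMA3F, was at 194, 200 (199.9) and 201 CPM in SMG, against 137, 150 (149.6) and 124 CPM in NG, where the third library was lowest. The groups did not overlap for either gene, and PLXNA3 rose by 0.53 ± 0.05 (edgeR adjusted p = 5.33e-07), or 0.38 with the trend removed.

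PLXNA1, a receptor of SEMA6D and of class 3 ligands, had the highest level of the plexins per kilobase of exons and was at 394, 399 and 411 CPM in SMG, against 332, 333 and 290 CPM (290.0) in NG. It rose by 0.33 ± 0.04 (edgeR adjusted p = 6.05e-06), and by 0.13 with the trend removed (edgeR adjusted p = 3.94e-04). PLXNA2, a receptor of SEMA6A, was at 172, 175 and 181 CPM in SMG, against 168, 160 (160.3) and 160.0 CPM in NG. The groups came within a few CPM of each other without overlap, and the change of PLXNA2 was the smallest of the 4, at 0.11 ± 0.04 (edgeR adjusted p = 0.0148). It was not called with the trend removed (-0.0051, edgeR adjusted p = 0.918), nor without NG replicate 2 (0.10, edgeR adjusted p = 0.0522) or SMG replicate 3 (0.09, edgeR adjusted p = 0.114). Per kilobase of exons, PLXNA2 made up 16.4% ± 0.153 of the plexin A counts in SMG and 19.6% ± 0.996 in NG, PLXNA3 21.8% ± 0.294 in SMG and 19.3% ± 0.947 in NG, PLXNA4 14.6% ± 0.480 in SMG and 13.1% ± 0.665 in NG, and PLXNA1 47.2% ± 0.181 in SMG and 48.0% ± 0.959 in NG (SD, n = 3 each). The plexin A shares thus moved towards PLXNA3 and PLXNA4 and away from PLXNA2, with no overlap of the libraries between groups for these 3 genes and overlap for PLXNA1.

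The 3 plexin B genes, receptors of class 4 semaphorins that activate RhoA through PDZ-RhoGEF and LARG, were also called higher, beside 17.3% of all tested genes. With the trend removed 1 of the 3 was, beside 14.9%. PLXNB1, the receptor of SEMA4D, was at 226, 222 and 228 CPM in SMG, against 171, 174 and 162 CPM in NG. PLXNB1 rose by 0.42 ± 0.03 (edgeR adjusted p = 2.61e-10), or 0.22 with the trend removed. PLXNB2, a receptor of SEMA4C, was at 181, 189 and 195 CPM in SMG, against 164, 168 and 150 CPM (149.9) in NG. Its libraries did not overlap, and PLXNB2 was at 0.23 ± 0.04 (edgeR adjusted p = 5.63e-05), but at 0.03 with the trend removed (edgeR adjusted p = 0.445).

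PLXNB3, a receptor of SEMA5A, was weakly expressed, at 3.30, 3.64 and 3.37 CPM in SMG, against 2.26, 2.96 and 2.07 CPM in NG, from 34 to 81 counts per library. It was at 0.51 ± 0.16 (edgeR adjusted p = 0.0135), and 0.30 with the trend removed (edgeR adjusted p = 0.153). Its call was also lost without NG replicate 1 (0.45, edgeR adjusted p = 0.0682), NG replicate 3 (0.42, edgeR adjusted p = 0.0574) or SMG replicate 2 (0.46, edgeR adjusted p = 0.0558). SRPK3 overlaps 20.4% of the exon bases of PLXNB3 on the same strand, so the value of PLXNB3 is uncertain.

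The other plexins did not pass. PLXNC1, the receptor of SEMA7A, was at 27.7, 30.3 and 29.6 CPM in SMG, against 29.9, 28.6 and 28.1 CPM in NG, with overlapping groups (0.01 ± 0.06, edgeR adjusted p = 0.878; -0.0076 with the trend removed). PLXND1, which binds SEMA3E without a neuropilin, was at 17.7, 18.3 and 15.6 CPM in SMG, against 17.4, 20.2 and 17.7 CPM in NG. The PLXND1 groups overlapped, at -0.10 ± 0.08 (edgeR adjusted p = 0.348), and with the trend removed it was lower, at -0.30 (edgeR adjusted p = 0.00221).

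The class 3 semaphorins, which are secreted, held both the largest rise and the largest fall of the family, in genes of low level. SEMA3E, the ligand of PLXND1, was at 5.19, 6.29 and 5.52 CPM in SMG, against 3.68, 3.26 and 2.74 CPM in NG, from 45 to 140 counts per library. All SMG libraries were higher, and SEMA3E rose by 0.80 ± 0.13 (1.74-fold, edgeR adjusted p = 3.28e-05). SEMA3D, a guidance ligand also active in heart and neural crest development, was at 5.15, 5.97 and 6.61 CPM in SMG, against 9.62, 9.42 and 10.2 CPM in NG, from 109 to 204 counts. All SMG libraries were lower, and SEMA3D fell by 0.72 ± 0.10 (edgeR adjusted p = 4.06e-06). The calls of SEMA3E and SEMA3D held under each of the 18 alternatives, at 0.70 to 0.92 and at -0.81 to -0.63.

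SEMA3C, which binds both neuropilins, was by far the most abundant member per length, with 112 CPM per kilobase of exons in SMG and 123 in NG, and held 93.2% of the class 3 counts per kilobase in both groups. SEMA3C was at 708, 699 and 696 CPM in SMG, against 773, 747 and 791 CPM in NG. The groups did not overlap, and the fall was small: -0.14 ± 0.03 (edgeR adjusted p = 0.00119), or -0.07 with the trend removed (edgeR adjusted p = 0.0422). With the replicate number as a block and the trend removed together it was not called (-0.07, edgeR adjusted p = 0.0545).

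SEMA3A, the classical collapsing ligand of NRP1, was at 41.6, 43.2 and 41.9 CPM in SMG, against 45.1, 43.4 and 49.2 CPM in NG. The SMG libraries were all below the NG libraries by a narrow margin, and SEMA3A did not pass (-0.12 ± 0.05, edgeR adjusted p = 0.0759; -0.06 with the trend removed) except without NG replicate 2 (-0.16, edgeR adjusted p = 0.0345). SEMA3F, the ligand of NRP2, was at 7.93, 6.83 and 8.01 CPM in SMG, against 8.25, 8.68 and 8.66 CPM in NG (-0.17 ± 0.10, edgeR adjusted p = 0.206), and was lower with the trend removed (-0.33, edgeR adjusted p = 0.0118). SEMA3B, a neuropilin ligand near SEMA3F on chromosome 3, was at 4.72, 3.55 and 3.99 CPM in SMG, against 4.86, 4.31 and 3.90 CPM in NG (-0.11 ± 0.14, edgeR adjusted p = 0.585; -0.27 and adjusted p = 0.138 with the trend removed). The groups overlapped for SEMA3B and not for SEMA3F, where SMG was below. SEMA3G had 0, 2 and 3 counts in SMG and 2, 1 and 0 counts in NG and was not tested; these are no more than 3 counts per library, the limit that a count of 0 allows, which is 0.131 to 0.142 CPM in SMG and 0.141 to 0.185 CPM in NG and covers counting error only.

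The class 4 semaphorins are membrane proteins that bind plexin B receptors, and 4 of 6 were called higher and 0 lower. Over all tested genes 17.3% were higher and 18.5% lower. With the trend removed 2 of the 6 were higher and 0 lower, beside 14.9% and 16.2% of all tested genes. SEMA4D, the ligand of PLXNB1, was at 85.2, 85.7 and 85.7 CPM in SMG, against 71.8, 74.2 and 67.4 CPM in NG. SEMA4C, a ligand of PLXNB2, was at 121, 121 and 120 CPM (119.9) in SMG, against 100.3, 102 and 100.1 CPM in NG. For both ligands every SMG library was above every NG library, as for PLXNB1 and PLXNB2 with TMM scaling. With the trend removed PLXNB2 was not called. SEMA4D rose by 0.27 ± 0.04 (edgeR adjusted p = 1.43e-05) and SEMA4C by 0.26 ± 0.04 (edgeR adjusted p = 2.36e-06), and with the trend removed they were at 0.21 and 0.12 and still called.

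SEMA4B was at 35.9, 35.9 and 35.1 CPM in SMG, against 33.2, 31.3 and 30.6 CPM in NG (0.16 ± 0.05, edgeR adjusted p = 0.0182). SEMA4G was at 28.0, 25.7 and 27.3 CPM in SMG, against 22.7, 23.6 and 24.8 CPM in NG (0.19 ± 0.06, edgeR adjusted p = 0.0139). The groups did not overlap for either gene, but neither call was steady. With the trend removed SEMA4B was at 0.01 (edgeR adjusted p = 0.860) and SEMA4G at 0.05 (edgeR adjusted p = 0.539). SEMA4B also lost its call without NG replicate 2 (0.15, edgeR adjusted p = 0.0505), SMG replicate 1 (0.16, 0.0502) or SMG replicate 2 (0.16, 0.0618), and SEMA4G without NG replicate 1 (0.16, 0.0903), SMG replicate 1 (0.17, 0.0740) or SMG replicate 3 (0.18, 0.0594). MRPL43, on the opposite strand, overlaps 22.3% of the exon bases of SEMA4G, and no source used here states whether counting used strand, so the value of SEMA4G is uncertain. SEMA4A, known for its roles in T cells and the retina, at 5.48, 5.93 and 6.26 CPM in SMG and 4.76, 5.11 and 5.30 CPM in NG, did not pass (0.23 ± 0.11, edgeR adjusted p = 0.129; 0.14 with the trend removed). SEMA4F, at 54.6, 52.7 and 53.3 CPM in SMG and 49.7, 53.2 and 51.7 CPM in NG, did not pass either (0.06 ± 0.05, edgeR adjusted p = 0.375; -0.017 with the trend removed). The groups overlapped for SEMA4F and not for SEMA4A, where SMG was above.

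The class 5 semaphorins carry thrombospondin repeats beside the sema domain. SEMA5A, a ligand of PLXNB3, was at 41.0, 40.3 and 38.7 CPM in SMG, against 33.7, 31.96 and 29.99 CPM in NG. The groups did not overlap, and SEMA5A rose by 0.32 ± 0.06 (edgeR adjusted p = 3.89e-05), or 0.29 with the trend removed. SEMA5B, which in mouse repels retinal axons together with SEMA5A, was at 113, 119 and 117 CPM in SMG, against 106, 117 and 99.0 CPM in NG, with overlapping groups. It was called with TMM scaling (0.12 ± 0.05, edgeR adjusted p = 0.0444) but was at -0.05 with the trend removed (edgeR adjusted p = 0.285). SEMA5B was also not called without NG replicate 1 (0.11, edgeR adjusted p = 0.135), NG replicate 3 (0.07, 0.150), SMG replicate 2 (0.10, 0.171) or SMG replicate 3 (0.11, 0.128).

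The class 6 semaphorins are transmembrane ligands of the plexin A receptors. SEMA6C was at 116, 118 and 113 CPM in SMG, against 85.9, 84.1 and 83.3 CPM in NG. With TMM scaling it had the largest change of the membrane-bound ligands, and the groups did not overlap. SEMA6C rose by 0.45 ± 0.04 (1.37-fold, edgeR adjusted p = 2.70e-10), or 0.25 with the trend removed, where SEMA5A was at 0.29. SEMA6C made up 25.2% ± 0.537 of the class 6 counts per kilobase in SMG and 20.5% ± 0.359 in NG (SD, n = 3 each).

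SEMA6D, a ligand of PLXNA1, was at 203, 196 and 198 CPM in SMG, against 188, 186 (185.5) and 187 CPM in NG (0.09 ± 0.03, edgeR adjusted p = 0.0334; 0.11 with the trend removed). SEMA6A, the ligand of PLXNA2 and PLXNA4, was at 142, 145 and 143 CPM in SMG, against 131, 132 and 137 CPM in NG (0.11 ± 0.03, edgeR adjusted p = 0.0160; 0.07 and adjusted p = 0.0746 with the trend removed). The groups did not overlap for SEMA6A or SEMA6D, but both changes were near the threshold. SEMA6A lost its call without NG replicate 1 (edgeR adjusted p = 0.0812), SMG replicate 2 (0.0726) or SMG replicate 3 (0.0609). SEMA6D lost it without any of NG replicate 1 (edgeR adjusted p = 0.0694), NG replicate 2 (0.0838), SMG replicate 1 (0.142), SMG replicate 2 (0.0539) or SMG replicate 3 (0.0835).

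SEMA6B, a ligand of PLXNA4, was at 93.3, 102 and 103 CPM in SMG, against 101, 106 and 90.5 CPM in NG. The groups overlapped and SEMA6B was at 0.0022 ± 0.05 (edgeR adjusted p = 0.979), but at -0.20 with the trend removed (edgeR adjusted p = 3.44e-05); its transcript has 67.7% GC, the highest of the family. SEMA7A, the ligand held by a lipid anchor that binds PLXNC1 and integrins, was at 23.6, 22.9 and 23.7 CPM in SMG, against 23.5, 26.6 and 24.0 CPM in NG. The groups overlapped for SEMA7A (-0.07 ± 0.06, edgeR adjusted p = 0.387), which was lower with the trend removed (-0.20, edgeR adjusted p = 0.00924).

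Between members, levels per kilobase of exons ran from SEMA3C down to SEMA3G. After SEMA3C, the highest were PLXNA1 (36.7 CPM per kilobase in SMG and 29.1 in NG), PLXNB2 (26.0 in SMG and 22.1 in NG), SEMA6D (23.3 in SMG and 21.9 in NG) and SEMA6B (22.5 in SMG and 22.5 in NG). The neuropilins lay in the middle of the order, NRP1 at 16.3 CPM per kilobase in SMG and 10.99 in NG and NRP2 at 11.3 in SMG and 13.0 in NG. The receptor PLXND1 (1.77 in SMG and 1.90 in NG) and its ligand SEMA3E (0.673 in SMG and 0.383 in NG) were both low. SEMA3A was at 4.51 CPM per kilobase in SMG and 4.90 in NG, and SEMA3F at 1.57 in SMG and 1.77 in NG.

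**Figure D3:**
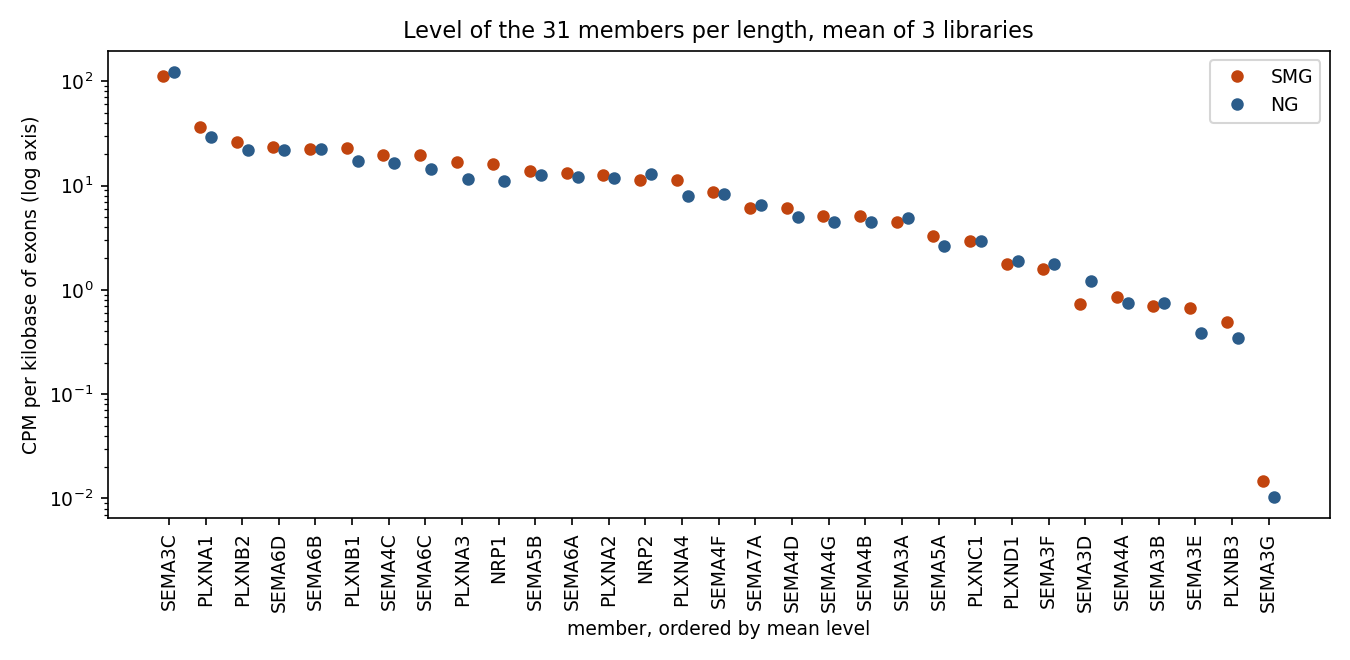
Mean level of each of the 31 members in CPM per kilobase of exons (log y axis) in SMG and NG, ordered by the mean over both (n = 3 libraries each). SEMA3C stands above the rest, at 112 in SMG and 123 in NG, and SEMA3G is near 0 in both groups.

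The other genes of the pathway were taken from a list of 70 co-receptors, alternative ligands, intracellular effectors and proteases, of which 61 were tested. Of these 21 were higher and 14 lower in SMG (57.4% called, against 35.8% of all tested genes), with a median of 0.01. Over all tested genes 17.3% were higher and 18.5% lower, and 14.9% and 16.2% with the trend removed. The 39 tested effectors, which act downstream of plexins, had 20 higher and 5 lower (15 and 3 with the trend removed). The 16 tested co-receptors and other ligands had 1 higher and 6 lower (2 and 8 with the trend removed), and the 6 proteases 0 higher and 3 lower. As the trend touches the effector count, the named genes are given with both values where they differ in call or by more than 1.5 times.

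VEGFA, a growth factor that shares NRP1 as a receptor with class 3 semaphorins and is a known target of hypoxia-inducible factors, was at 121, 126 and 125 CPM in SMG, against 219, 216 (215.5) and 232 CPM in NG. Every SMG library was lower, and VEGFA fell by 0.84 ± 0.04 (edgeR adjusted p = 4.15e-17). Its endothelial receptor KDR was at 0.547 CPM in SMG and 0.973 CPM in NG, from 8 to 19 counts per library, and is also among the endothelial markers above. The call of KDR (-0.82 ± 0.32, edgeR adjusted p = 0.0419) was lost without NG replicate 1 (0.0741), NG replicate 2 (0.152), SMG replicate 2 (0.194) or SMG replicate 3 (0.106). KDR was also not called by DESeq2 (adjusted p = 0.179), by edgeR without a filter (0.0718) or with the replicate number as a block (0.0566), and the filter of 1 CPM in 3 libraries removed it. L1CAM, an adhesion molecule that forms a complex with NRP1 in SEMA3A signalling, was at 644, 673 and 683 CPM in SMG, against 513, 530.3 and 519 CPM in NG. With TMM scaling L1CAM was the 1 co-receptor called higher (0.36 ± 0.03, edgeR adjusted p = 1.22e-09, or 0.20 with the trend removed). CHL1, another adhesion molecule on the list, was not called (0.06, edgeR adjusted p = 0.288). With the trend removed CHL1 was also called higher (0.11, edgeR adjusted p = 0.0321). NRCAM, which associates with NRP2, was at 253, 240 (239.5) and 251 CPM in SMG, against 275, 269 and 276 CPM in NG. NRCAM was lower (-0.14 ± 0.03, edgeR adjusted p = 0.00128). Whether co-receptors and neuropilins change together was not tested.

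Among the effectors, MICAL1 encodes an enzyme that oxidises and disassembles actin filaments downstream of plexin A, and MICAL3 a member of the same enzyme family. MICAL1 was at 169, 173 and 182 CPM in SMG, against 136, 142 and 123 CPM in NG (0.38 ± 0.04, edgeR adjusted p = 2.70e-07; 0.25 with the trend removed). MICAL3 was at 71.1, 68.2 and 76.9 CPM in SMG, against 57.8, 56.7 and 54.7 CPM in NG (0.35 ± 0.05, edgeR adjusted p = 1.49e-06; 0.18 with the trend removed); a transcript on the same strand overlaps 16.3% of the exon bases of MICAL3, at a mean of 10 counts beside 1304. Both were higher in every SMG library, as were EVL, an actin regulator that binds the tail of SEMA6A (0.35 ± 0.04, edgeR adjusted p = 1.20e-08; 0.26 with the trend removed), and CDK5R1, the activator of the kinase CDK5 (0.29 ± 0.04, edgeR adjusted p = 2.92e-07; 0.18 with the trend removed).

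The CRMP proteins carry the SEMA3A signal to microtubules. DPYSL2, also called CRMP2, was at 713, 705 and 707 CPM in SMG, against 622, 636 and 638 CPM in NG (0.16 ± 0.03, edgeR adjusted p = 1.14e-04). CRMP1 was at 1312, 1343 and 1299 CPM in SMG, against 1206, 1225 and 1165 CPM in NG (0.14 ± 0.03, edgeR adjusted p = 0.00101), and was not called with the trend removed (0.05, edgeR adjusted p = 0.114). The 5 effectors called lower, named here after their values were seen, were the small GTPases RND3, RHOA, RRAS2 and RAP1B and the GTPase-activating protein ARHGAP5, which ranged from -0.26 (RRAS2) to -0.10 (RHOA). With the trend removed ARHGAP5 was still called (-0.18, edgeR adjusted p = 1.99e-05) and the other 4 were not: RND3 was at -0.03, RHOA at -0.04, RRAS2 at -0.12 and RAP1B at -0.09. An antisense gene that is absent from the counts overlaps 33.2% of the exon bases of ARHGAP5, so its value is uncertain. RHOA also lost its call without NG replicate 3 (edgeR adjusted p = 0.0596), SMG replicate 1 (0.0787) or SMG replicate 3 (0.0903), and RAP1B without NG replicate 1 (0.0884), NG replicate 2 (0.122), SMG replicate 1 (0.146) or SMG replicate 2 (0.0839). Scaled by library size alone, neither RHOA (edgeR adjusted p = 0.0658) nor RAP1B (0.0769) was called, nor was either without a filter (0.0876 for RHOA and 0.0802 for RAP1B), and DESeq2 did not call RAP1B (0.106).

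Among the proteases that process semaphorins or their receptors, the convertase PCSK6 was at 4.34, 5.30 and 4.38 CPM in SMG, against 6.51, 6.71 and 5.24 CPM in NG (-0.40 ± 0.12, edgeR adjusted p = 0.0123), with overlap of 1 library between groups. An antisense gene overlaps 10.8% of the exon bases of PCSK6. Another gene, on the same strand and absent from the counts, overlaps 9.17% of them, so the value of PCSK6 is uncertain. PCSK6 lost its call without NG replicate 1 (edgeR adjusted p = 0.0740), NG replicate 2 (0.0544), SMG replicate 1 (0.0586) or SMG replicate 3 (0.0620), and was not called by DESeq2 (adjusted p = 0.0743). MMP14, a membrane metalloprotease, was at 7.22, 9.03 and 7.53 CPM in SMG, against 9.24, 11.9 and 9.63 CPM in NG (-0.36 ± 0.11, edgeR adjusted p = 0.00975). The MMP14 groups did not overlap, but its call was lost without NG replicate 2 (edgeR adjusted p = 0.0898), SMG replicate 1 (0.0627) or SMG replicate 3 (0.0543). The third protease called lower was ADAM10, a sheddase (-0.12 ± 0.03, edgeR adjusted p = 0.00537), whose call was lost without SMG replicate 3 (0.0515).

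**Figure D4:**
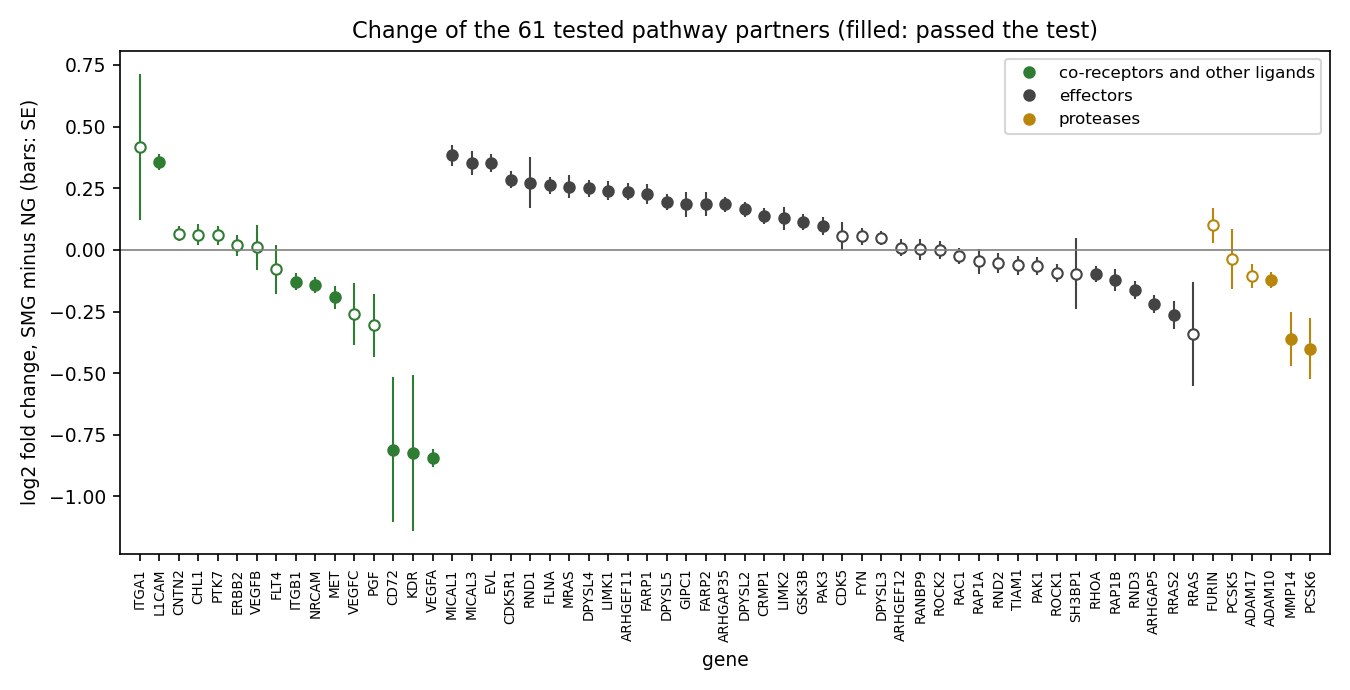
Log2 fold change of the 61 tested pathway partners (y axis, SMG minus NG, bars are the SE) by group; filled points passed edgeR's test at an adjusted p of 0.05. VEGFA has the lowest value, at -0.84, and the effectors have 20 filled points above 0 and 5 below.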

How the data were processed

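Bulk RNA from 3 SMG and 3 NG libraries was made into libraries with an mRNA kit, per the labels' protocols. The authors deposited a table of unnormalized whole-number counts, with Ensembl genes in rows and libraries in columns. Per the submitters' processing notes, the tools were HISAT2, SAMtools, featureCounts and DESeq2 with hg19; versions, annotation, strand setting and the handling of multi-mapping reads were not given in the sources used here. Each column matched 1 sample's title. A symbol was found for 52338 of 57820 genes from a table of gene names and GENCODE 29 (GRCh38), which also gave gene types, exon lengths and exon overlaps; upstream sequences are from RefSeq (GRCh38.p14). No coordinates of the counts' own build were used.

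After edgeR's filterByExpr (17803 genes left) and TMM scaling, SMG was compared with NG by the robust quasi-likelihood test of edgeR, with Benjamini-Hochberg adjustment over all tested genes and a threshold of 0.05. The SE is the log2 fold change divided by the square root of F. The trend with transcript length and GC content was fitted per library with natural splines (5 degrees of freedom each) and entered as an offset. Pairs of libraries of a group had a chi-square per degree of freedom of 1.53 to 3.11, above sampling noise, and the biological coefficient of variation was 0.0346. The scripts were tested on simulated data. The members and lists were chosen with earlier results of these data known. Every member with a mean of at least 1 CPM is given by library; named partners are the 8 with the largest change among those that passed with a mean of at least 2 CPM, plus NRCAM, CRMP1 and DPYSL2; VEGFA and L1CAM were also listed by name and are among the 8. KDR, CHL1, RND3, RHOA, RRAS2, RAP1B, ARHGAP5 and ADAM10 were added after their values were seen. Marker lists not printed above (neurons, interneurons, oligodendrocyte precursors and pluripotent cells) are given in the closing section, and 1 further list is not reported here. Versions were DESeq2 1.42.0, limma 3.58.1 and edgeR 4.0.16 under R 4.3.3. The alternatives are in the closing section.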

Additional observations from a re-analysis of the deposited data

How the results depend on the processing

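Of the 30 tested members, 14 kept direction and call under each of 18 alternatives, among them 10 called higher (NRP1, PLXNA1, PLXNA3, PLXNA4, PLXNB1, SEMA3E, SEMA4C, SEMA4D, SEMA5A, SEMA6C) and 2 called lower (NRP2, SEMA3D). With the length and GC trend removed, members were 11 higher and 7 lower (semaphorins 6 and 5, receptors 5 and 2); with the replicate number as a block beside it, 11 and 6 (semaphorins 6 and 4, receptors 5 and 2). Signs turned with the trend removed, without and with the block, for SEMA4F (-0.017 and -0.017), SEMA5B (-0.0501 and -0.0505), SEMA6B (-0.20 and -0.20), PLXNA2 (-0.0051 and -0.0051) and PLXNC1 (-0.0076 and -0.0090). Signs also turned for SEMA6B without NG replicate 3 (-0.0545), SMG replicate 2 (-0.0175) or SMG replicate 3 (-0.0244), in a leave-one-out range of -0.0545 to 0.0486, and for PLXNC1 without NG replicate 3 (-0.0025) or SMG replicate 2 (-0.0133), in a range of -0.0133 to 0.0512. DESeq2 called 6 semaphorins higher in place of 10, without SEMA4B, SEMA4G, SEMA5B and SEMA6D, and lost PLXNB3. Leaving out 1 library gave 6 to 9 semaphorins higher, with 6 without NG replicate 1, SMG replicate 2 or SMG replicate 3, and 9 to 12 pathway partners lower, with 9 without SMG replicate 1; these fits have fewer samples. Scaling by library size, upper quartile or the size factors of DESeq2 changed no member's call, nor did either filter or protein-coding genes alone; limma-voom and the fit without robust estimation lost SEMA5B. Library numbers did not pair the libraries (correlations of deviations -0.0041, 0.018 and -0.028; 1 of 3 SMG libraries correlated best with its own number and 0 of 3 NG libraries), and the replicate block alone changed no member's call (18 higher, 3 lower). At 34 to 204 counts per library, SEMA3B, SEMA3D, SEMA3E, SEMA3F, SEMA4A and PLXNB3 are the least precise. The cause of these differences was not tested.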

Other observations

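Markers of cell types that enter no comparison above were also summed. Pan-neuronal markers summed to 7612 to 7780 CPM in SMG and 7514 to 8078 CPM in NG, with 2 of 6 higher and 2 lower. Spinal interneuron markers summed to 29.5 to 31.4 CPM in SMG and 28.6 to 33.4 CPM in NG, with 1 of the 4 tested higher. Oligodendrocyte precursor markers summed to 104 to 114 CPM in SMG and 97.2 to 114 CPM in NG, with 0 of the 4 tested called by edgeR. OLIG1, at a mean of 102 CPM over the 6 libraries, carried this sum, while PDGFRA and SOX10 were at means of 0.474 and 0.400 CPM. Pluripotency markers summed to 45.8 to 53.9 CPM in SMG and 54.9 to 58.0 CPM in NG, carried by LIN28A, the only 1 tested, which was lower. Over all tested genes 17.3% were higher and 18.5% lower.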
